A study of Mus musculus with 4 samples.

Results

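Astrocytes of the uninjured cord keep a set of support genes switched on, and 9 of these homeostatic astrocyte genes are described here across 4 groups of injured mice: SLC1A2, SLC1A3, AQP4, GLUL, ALDH1L1, ALDOC, GJA1, GJB6 and S100B. They were chosen by name as known astrocyte genes, not by a threshold on these values, though with earlier results of these data known. The table lists 14125 gene symbols at 7 days post injury (dpi) and 11472 at 21 dpi, with 14718 at either time, and symbols are given in capitals as deposited. At 21 dpi all 9 genes are listed. At 7 dpi 8 are listed, ALDOC being the exception.

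The mice were males in which the mouse Apoe gene had been replaced in its coding part by human ApoE3 or human ApoE4 (targeted replacement), so that every group makes a human protein in place of the mouse one. All were adults of 3 to 5 months that received an incomplete contusion injury of 50 kdyne to the thoracic cord under isoflurane, and RNA was taken from a short cord segment holding the lesion. The groups were ApoE3 at 7 dpi, ApoE4 at 7 dpi, ApoE3 at 21 dpi and ApoE4 at 21 dpi. No uninjured or sham group is used here, so no value below is a change from the uninjured cord. Each group held 3 mice, and the table gives 1 value per gene and group, so there is no spread between mice and no difference below has a replicate check. The libraries had been down-sampled to a common number of reads before alignment, and the number of reads behind a single value is unknown.

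Astrocytes clear glutamate from the synaptic cleft through SLC1A2 (the transporter GLT1) and SLC1A3 (GLAST), and glutamine synthetase, the product of GLUL, turns it into glutamine that neurons take up. AQP4 forms the water channel of astrocyte endfeet on blood vessels and at the cord surface, and the connexins GJA1 and GJB6 join astrocytes through gap junctions. ALDH1L1 is a folate enzyme, ALDOC a glycolytic aldolase, and S100B a calcium-binding protein; after injury astrocytes around a lesion become reactive, a state known for high GFAP.

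Levels are FPKM, the fragments mapped to a gene corrected for transcript length and library size. At 7 dpi AQP4 had the highest level of the 8 listed genes in both genotypes, followed by SLC1A2, S100B, GLUL, GJB6, GJA1, ALDH1L1 and SLC1A3 in that order. At 21 dpi ALDOC stood first in both genotypes, and SLC1A2 was above AQP4, then S100B, GLUL, GJB6 and GJA1. Only the order of the bottom pair differed between genotypes at 21 dpi, with SLC1A3 above ALDH1L1 in ApoE3 and below it in ApoE4. Since no spread is known, it cannot be said which neighbours in these orders differ. Without ALDOC, the 8 genes summed to 5795 FPKM in ApoE3 and 5284 FPKM in ApoE4 at 7 dpi, and to 3735 in ApoE3 and 6176 in ApoE4 at 21 dpi. AQP4 made up 46.4% of that sum in ApoE3 and 45.7% in ApoE4 at 7 dpi, and 22.3% and 23.8% at 21 dpi. SLC1A2 made up between 28.3% and 29.6% in all 4 groups.

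**Figure D1:**
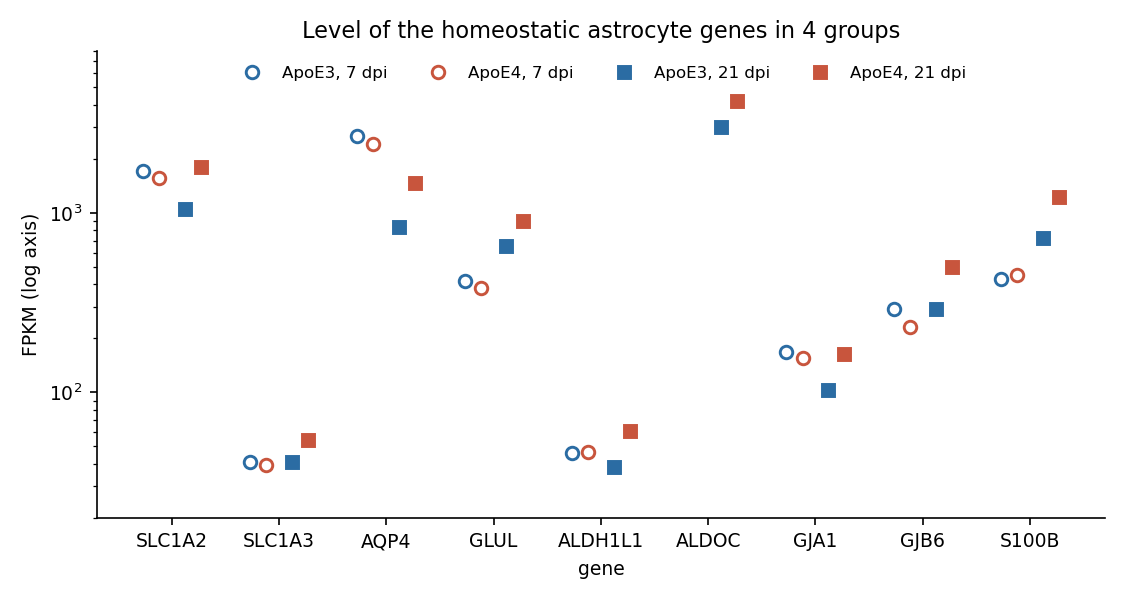
FPKM of each gene (log axis) in the 4 groups, with open circles for 7 dpi, filled squares for 21 dpi, blue for ApoE3 and red for ApoE4. Each point is the single value of a group, and AQP4 is the gene whose 7 dpi points lie farthest above its 21 dpi points.

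Tissue identity was checked with markers of cord cells. GFAP, the intermediate filament of reactive astrocytes, stood at 12395 FPKM in ApoE3 and 12386 FPKM in ApoE4 at 7 dpi, and at 8201 and 15313 at 21 dpi. MBP of myelin and SNAP25 of nerve terminals were also high, MBP at 120571 FPKM or more and SNAP25 at 2545 FPKM or more in every group. In whole cord tissue, fewer astrocytes and less RNA per astrocyte cannot be told apart.

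A change between groups is given as a log2 ratio of FPKM + 1, and a gene is counted as higher or lower when the ratio passed 1.3-fold, or 0.38 on the log2 scale. At 7 dpi the median log2 ratio of ApoE3 to ApoE4 over genes averaging 1 FPKM or more was 0.0018, but at 21 dpi it was -0.42, so that most genes were listed lower in ApoE3. Between 7 and 21 dpi this median was 0.09 in ApoE3 and 0.53 in ApoE4. Ratios at 21 dpi and between time points are therefore also given relative to the median of all genes. The time points are separate comparisons that list different sets of rows, and whether they were normalized together is not given in the sources used here, so changes between them depend on that scaling. The genotype of each value follows the name of the comparison in the table, ApoE3 first, which is also the order in which the deposited ratio was formed and in which the supplementary list of the study reads it. Its column numbers name the genotypes in the other order, and under that reading the names ApoE3 and ApoE4 swap in every sentence.

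SLC1A2 carries most glutamate uptake in the adult central nervous system. It was listed at 1712 FPKM in ApoE3 and 1565 FPKM in ApoE4 at 7 dpi, and at 1057 in ApoE3 and 1802 in ApoE4 at 21 dpi. The lowest value was that of ApoE3 at 21 dpi, 1.62-fold below ApoE3 at 7 dpi on the scale of FPKM + 1. SLC1A3, a transporter that radial glia also make, was far lower, at 41.1 FPKM in ApoE3 and 39.5 FPKM in ApoE4 at 7 dpi, and at 41.0 in ApoE3 and 54.2 in ApoE4 at 21 dpi. SLC1A2 was 41.6 times the level of SLC1A3 in ApoE3 and 39.6 times in ApoE4 at 7 dpi, against 25.8 and 33.2 times at 21 dpi. Relative to all genes, SLC1A3 lay within 0.10 of 0 in each of the 4 comparisons.

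GLUL, which takes up the next step of the glutamate cycle, was listed at 419 FPKM in ApoE3 and 380.0 FPKM in ApoE4 at 7 dpi, and at 652 in ApoE3 and 899 in ApoE4 at 21 dpi. It was higher at 21 dpi in both genotypes, by 1.56-fold in ApoE3 and 2.36-fold in ApoE4 as deposited, and by 0.55 and 0.71 on the log2 scale relative to all genes. When values were rescaled to a common total, its ratio in ApoE3 was 0.36, just inside the threshold. The uptake gene SLC1A2 and the conversion gene GLUL thus stood in another proportion at the later time: GLUL was 0.245 of SLC1A2 in ApoE3 and 0.243 in ApoE4 at 7 dpi, and 0.617 and 0.499 at 21 dpi.

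AQP4 showed the widest range in FPKM among the 8 genes listed at both times. It was listed at 2689 FPKM in ApoE3 and 2415 FPKM in ApoE4 at 7 dpi, and at 833 in ApoE3 and 1472 in ApoE4 at 21 dpi. Both 21 dpi values lie below both 7 dpi values. The ratio between time points was 3.23-fold in ApoE3 and 1.64-fold in ApoE4 as deposited, and relative to all genes AQP4 fell by 1.78 in ApoE3 and fell by 1.24 in ApoE4 on the log2 scale. In ApoE3, 2.26% of genes had a lower ratio, and in ApoE4 6.08%.

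The connexins did not move alike. GJA1 was listed at 168 FPKM in ApoE3 and 155 FPKM in ApoE4 at 7 dpi, and at 103 in ApoE3 and 163 in ApoE4 at 21 dpi. GJB6 was listed at 290.3 FPKM in ApoE3 and 230.2 FPKM in ApoE4 at 7 dpi, and at 291 in ApoE3 and 498 in ApoE4 at 21 dpi. GJB6 was above GJA1 in every group, by 1.73 times in ApoE3 and 1.48 times in ApoE4 at 7 dpi and by 2.84 and 3.05 times at 21 dpi. Relative to all genes, GJA1 was lower at 21 dpi in both genotypes, at -0.80 in ApoE3 and -0.45 in ApoE4, although its deposited ratio in ApoE4 was 0.07. GJB6 was higher at 21 dpi in ApoE4 (0.58) and lay at -0.09 in ApoE3, and whether its change differs between genotypes was not tested.

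The remaining genes serve metabolism and calcium binding. ALDH1L1 was listed at 45.7 FPKM in ApoE3 and 46.3 FPKM in ApoE4 at 7 dpi, and at 38.3 in ApoE3 and 60.7 in ApoE4 at 21 dpi, and relative to all genes it passed the fold in none of the 4 comparisons. With values rescaled to a common total, it was lower at 21 dpi in ApoE3 (-0.51). ALDOC was listed at 3014 FPKM in ApoE3 and 4216 FPKM in ApoE4 at 21 dpi, above 99.7% of the rows in both groups. S100B was listed at 430.4 FPKM in ApoE3 and 453 FPKM in ApoE4 at 7 dpi, and at 720.3 in ApoE3 and 1228 in ApoE4 at 21 dpi. S100B had the largest rise of the 8 genes in both genotypes, 1.67-fold in ApoE3 and 2.71-fold in ApoE4 as deposited, or 0.65 and 0.91 on the log2 scale relative to all genes.

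Ratios between genes inside a group do not depend on how groups were scaled. AQP4 was 1.57 times SLC1A2 in ApoE3 and 1.54 times in ApoE4 at 7 dpi, and 0.788 and 0.817 times at 21 dpi. S100B was 0.251 and 0.289 of SLC1A2 at 7 dpi, and 0.681 and 0.682 at 21 dpi. GJB6 was 0.170 and 0.147 of SLC1A2 at 7 dpi, and 0.275 and 0.276 at 21 dpi. For these 3 genes the genotypes lay close together within a time point and apart between time points. GJA1 kept its proportion to SLC1A2 across all 4 groups, at 0.0982 in ApoE3 and 0.0991 in ApoE4 at 7 dpi and 0.0970 and 0.0906 at 21 dpi.

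**Figure D2:**
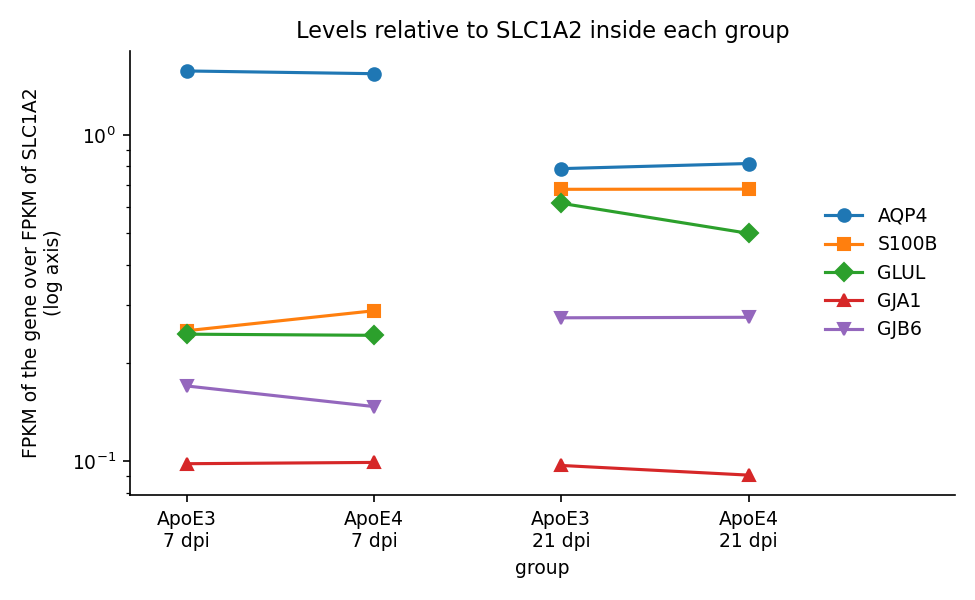
FPKM of AQP4, S100B, GLUL, GJA1 and GJB6 divided by FPKM of SLC1A2 in the same group (log axis), with lines joining the genotypes of a time point. AQP4 runs from 1.57 to 0.788 in ApoE3, while GJA1 stays between 0.0906 and 0.0991.

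The promoters of these pairs are shown because GJA1 kept its proportion to SLC1A2, and because GLUL and S100B were both higher at 21 than at 7 dpi. Between genotypes GLUL and S100B differed, at 0.14 and -0.07 at 7 dpi and at -0.04 and -0.35 relative to all genes at 21 dpi. RefSeq promoter windows of 300 bases, from 250 before to 50 after the start of the gene (build GRCm38.p6), were matched by symbol for 8 of the 9 genes, with 9 windows since ALDOC has more than 1. The table had no entry for AQP4. All 4 windows lie on the plus strand: SLC1A2 at chr2:102706188-102706487, GJA1 at chr10:56377050-56377349, GLUL at chr1:153899679-153899978 and S100B at chr10:76253586-76253885. Capitals mark the half-site TTGGC of nuclear factor I, a factor family of astrocyte development, or its reverse GCCAA, whose letters can overlap a CCAAT box.
SLC1A2: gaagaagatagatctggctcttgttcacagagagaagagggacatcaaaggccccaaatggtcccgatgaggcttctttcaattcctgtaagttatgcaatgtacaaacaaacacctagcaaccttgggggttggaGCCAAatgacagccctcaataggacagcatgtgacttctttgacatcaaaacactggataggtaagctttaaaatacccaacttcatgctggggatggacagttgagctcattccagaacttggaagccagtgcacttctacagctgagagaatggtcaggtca
GJA1: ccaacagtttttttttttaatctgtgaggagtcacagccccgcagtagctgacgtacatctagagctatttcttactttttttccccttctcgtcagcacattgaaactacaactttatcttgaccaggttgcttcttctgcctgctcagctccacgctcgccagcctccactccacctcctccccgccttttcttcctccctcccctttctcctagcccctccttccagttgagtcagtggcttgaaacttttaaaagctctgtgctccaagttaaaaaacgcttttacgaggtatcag
GLUL: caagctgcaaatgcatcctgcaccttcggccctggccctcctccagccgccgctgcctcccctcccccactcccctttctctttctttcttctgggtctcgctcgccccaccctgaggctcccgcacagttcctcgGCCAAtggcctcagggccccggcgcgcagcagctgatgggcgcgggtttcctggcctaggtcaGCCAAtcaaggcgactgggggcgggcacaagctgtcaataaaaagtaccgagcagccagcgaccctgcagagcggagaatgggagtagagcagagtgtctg
S100B: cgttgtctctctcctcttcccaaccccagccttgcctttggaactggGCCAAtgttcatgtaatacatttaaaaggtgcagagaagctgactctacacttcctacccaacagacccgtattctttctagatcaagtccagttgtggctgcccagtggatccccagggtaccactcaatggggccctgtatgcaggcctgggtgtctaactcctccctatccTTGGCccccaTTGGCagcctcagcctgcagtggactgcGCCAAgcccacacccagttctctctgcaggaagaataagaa
The half-site occurred 4 times in the S100B window, 2 times in GLUL, 1 time in SLC1A2 and 0 times in GJA1. It was present in 4 of the 9 windows and in 46.7% of all 32851 windows. The core ACAAT of SOX factors, or its reverse ATTGT, was in 2 of 9 windows, against 31.0% of all, and the STAT3 site TTCCNGGAA was in 1 of 9, that of ALDOC, against 1.15% of all. A match describes letters in a window and was not tested as a binding site.

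The first comparison asks whether the genotype of the mice went with the level of these genes at 7 dpi, early in recovery. None of the 8 listed genes passed the fold: 0 were higher in ApoE3, against 3.78% of all 14127 rows, and 0 were lower, against 4.76%. In all, 6 genes lay above the median of all genes and 2 below it, with a median log2 ratio of 0.12. GJB6 had the highest ratio, 0.33 or 1.26-fold, above 94.6% of the rows, and AQP4 (0.16), GLUL (0.14), SLC1A2 (0.13) and GJA1 (0.11) followed. The lowest ratio was that of S100B at -0.07. Neuron markers, led by MAP2, summed to 10553 FPKM in ApoE3 and 8244 FPKM in ApoE4 at 7 dpi, with 4 of 15 higher in ApoE3, 0 lower and a median of 0.26, and macrophage and monocyte markers, led by LYZ2, to 7573 and 9893 FPKM, with 3 of 11 lower and 0 higher. Their part in the ratios of the astrocyte genes was not tested.

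At 21 dpi, later in recovery, all 9 genes were listed lower in ApoE3 than in ApoE4, by 1.32-fold for SLC1A3 to 1.77-fold for AQP4. Of the 11474 rows, 58.9% were lower and 2.02% higher in ApoE3 by the same fold, so that the direction is that of the table as a whole. Once the table's median was subtracted, 1 of the 9, AQP4, was lower (-0.40, just past the threshold), against 8.07% of rows, and 0 were higher, against 7.47%. In total 8 of the 9 lay below the median of all genes, and their own median was -0.24. SLC1A2, GJB6 and S100B had nearly the same ratio, at -0.35, -0.35 and -0.35, just inside the threshold. ALDOC (-0.06), GLUL (-0.04) and SLC1A3 (0.03) lay near the median.

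**Figure D3:**
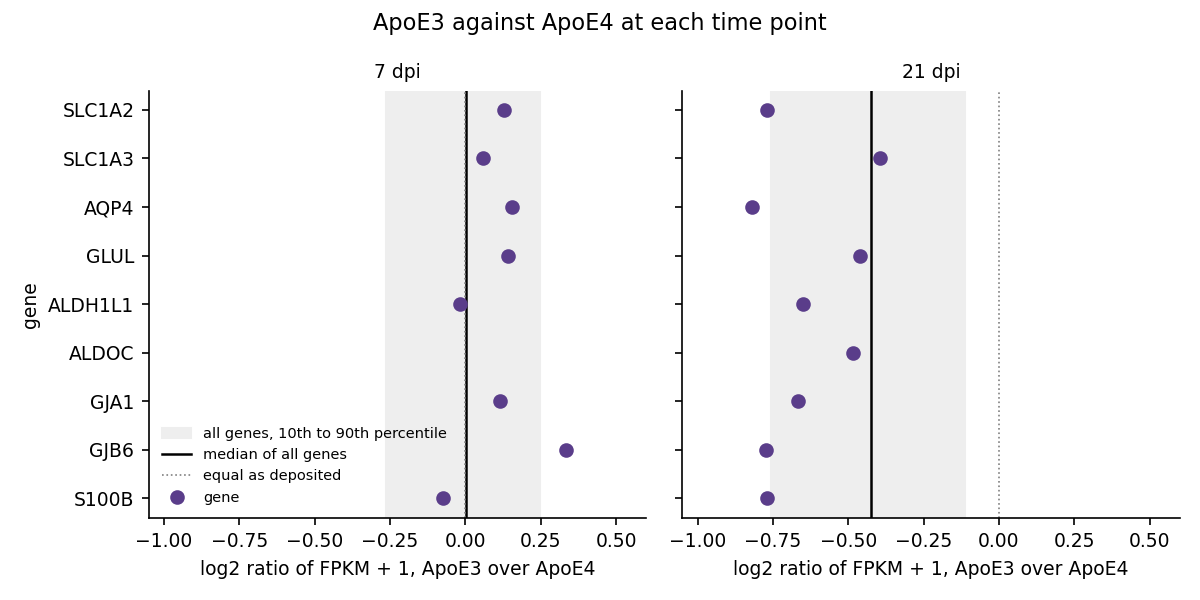
Log2 ratio of FPKM + 1, ApoE3 over ApoE4, for each gene at 7 dpi (left) and 21 dpi (right). The line is the median of all genes, the grey band spans the 10th to 90th percentile of genes averaging 1 FPKM or more, and 8 of 9 points at 21 dpi lie to the left of the line.

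Markers of other tissues and cells were also compared between genotypes at 21 dpi, as single values with no spread. Relative to all genes, 8.07% of all rows were lower in ApoE3 and 7.47% higher. Skeletal muscle markers summed to 35.1 FPKM in ApoE3 and 738 in ApoE4, lower in ApoE3 for 9 of 9 listed genes, with TNNT3 the most abundant and MYH4 listed at 0 in ApoE3. Liver markers summed to 10.7 and 129 FPKM, lower for 7 of 7, led by APOA2. Schwann cell markers summed to 3357 and 1222 FPKM, higher in ApoE3 for 7 of 9 relative to all genes, led by PMP22. Sensory ganglion markers summed to 810.3 and 839 FPKM, led by CALCA at 702 and 829.5, and 8 of 9 were higher in ApoE3 relative to all genes, with TRPV1 and MRGPRD listed at 0 in ApoE4. Fibroblast and meningeal markers summed to 694 and 653 FPKM, higher in ApoE3 for 7 of 9 relative to all genes, led by FN1. Ependymal markers summed to 146 and 131 FPKM, higher for 4 of 7 relative to all genes, led by FOXJ1. Macrophage and monocyte markers summed to 1301 and 2530 FPKM, lower in ApoE3 for 5 of 9 relative to all genes, led by SPP1, and neuron markers summed to 11743 and 18142, lower for 2 of 13 on the same scale, led by SNAP25. Before the median was subtracted, 9 of 9 macrophage and monocyte markers and 10 of 13 neuron markers were lower, and 0 of either were higher. On that scale 58.9% of all rows were lower and 2.02% higher. The part of these tissues and cells in the ratios of the astrocyte genes was not tested.

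The time comparisons ask how the genes stood at 21 dpi against 7 dpi in each genotype, over 10876 genes on 1 row at both times. In ApoE3, 2 of the 8 genes were higher at 21 dpi (GLUL and S100B), against 31.3% of all genes, and 3 were lower (AQP4, GJA1 and SLC1A2), against 23.6%. Counts of 2 and 3 were also found after the table's median was subtracted, where 26.6% of genes were higher and 27.7% lower. SLC1A2 stood at -0.78 and GJA1 at -0.80 on that scale, and ALDH1L1 at -0.34. The higher count lies near its background share and the lower count somewhat above it, and the set as a whole took no single direction.

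In ApoE4, 5 of the 8 genes were higher as deposited, against 59.0% of all genes, and 1 was lower, against 10.9%. Once the table's median was subtracted, 3 were higher (S100B, GLUL and GJB6), against 26.1%, and 2 were lower (AQP4 and GJA1), against 28.6%. SLC1A2 stood at -0.32, SLC1A3 at -0.08 and ALDH1L1 at -0.14 on that scale, although their deposited ratios were 0.20, 0.45 and 0.38. The counts lie near or a little above their background shares.

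From lowest to highest, the ratio of 21 to 7 dpi put the 8 genes in the same order in ApoE3 and in ApoE4: AQP4, GJA1, SLC1A2, ALDH1L1, SLC1A3, GJB6, GLUL and S100B. The groups of these comparisons are not shared between genotypes. Over all 10876 genes the rank correlation of the same pair of ratios was 0.83, so a common order between genotypes is a feature of the whole table. Genes are not independent replicates, and this is a description.

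**Figure D4:**
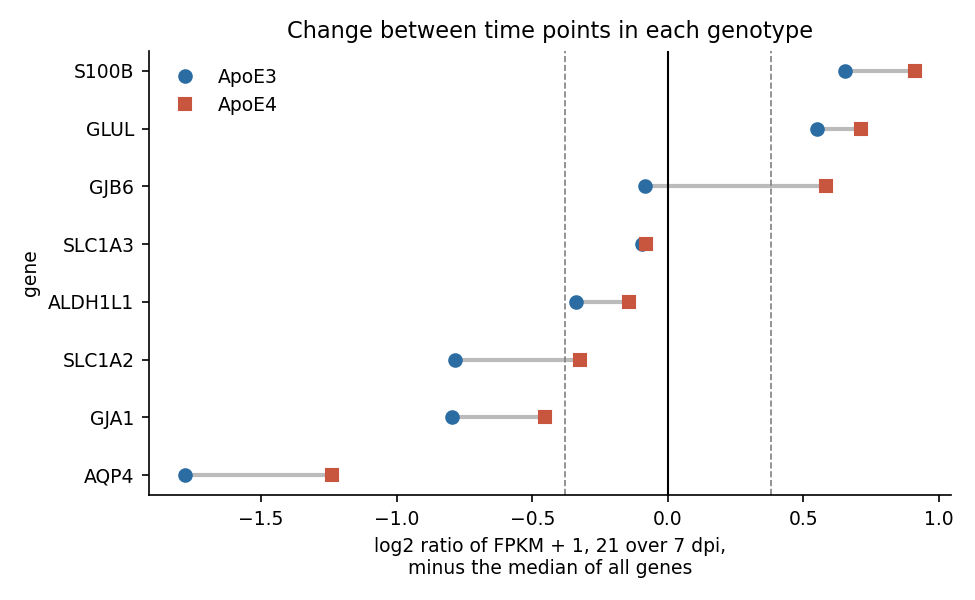
Log2 ratio of FPKM + 1, 21 over 7 dpi, minus the median of all genes, for the 8 genes listed at both times in ApoE3 (blue circles) and ApoE4 (red squares). Dashed lines mark the fold of 1.3, which AQP4 and GJA1 pass on the left, and GLUL and S100B on the right, in both genotypes.

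GLUL and S100B are also transcribed in oligodendrocytes, whose 8 markers listed at both times summed to 127453 FPKM in ApoE3 and 134582 FPKM in ApoE4 at 7 dpi, and to 210618 and 292252 at 21 dpi, led by MBP. Relative to all genes, 3 of these 8 were higher at 21 dpi and 1 lower in ApoE3, and 5 were higher and 0 lower in ApoE4. On that scale 26.6% of all genes were higher and 27.7% lower in ApoE3, and 26.1% and 28.6% in ApoE4. Macrophage and monocyte markers, led by LYZ2, went from 6249 to 383 FPKM in ApoE3 and from 8183 to 721 in ApoE4, with 8 of 8 lower in both. Neuron markers went from 9656 to 11743 FPKM in ApoE3 and from 7497 to 18142 in ApoE4, with 7 and 12 of 13 higher relative to all genes. S100B is also a Schwann cell gene, and Schwann cell markers, led by PMP22, went from 864 to 3354 FPKM in ApoE3, with 6 of 8 higher and 1 lower, and from 860.3 to 1221 in ApoE4, with 1 higher and 5 lower relative to all genes. Before the median was subtracted, 3 of these Schwann cell markers were higher and 1 lower in ApoE4, against 59.0% and 10.9% of all genes. Skeletal muscle markers, led by TNNT3, went from 66.6 to 34.6 FPKM in ApoE3, with 5 of 7 lower, and from 43.4 to 715 in ApoE4, with 7 of 7 higher. The part of these cells in the time course of the astrocyte genes was not tested.

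Of 77 further astrocyte genes, 62 were listed at 21 dpi, where 2 were lower and 1 higher in ApoE3 relative to all genes, against 51 lower and 1 higher as deposited. CHRDL1 (2.06), the higher gene, and SLC14A1 (-0.39), among the lower, were named after their values were seen. The median of the 62 was -0.15, against -0.24 for the 9 homeostatic genes. At 7 dpi 71 were listed, 2 were higher in ApoE3 and 0 lower, against 3.78% and 4.76% of all rows. Between time points, 18 of 60 were higher and 17 lower in ApoE3, and 22 were higher and 13 lower in ApoE4, relative to all genes. As deposited, the counts were 21 and 14 in ApoE3 and 41 and 4 in ApoE4. Of all genes, 31.3% were higher and 23.6% lower in ApoE3 as deposited, and 59.0% and 10.9% in ApoE4. With the table's median subtracted, 26.6% of all genes were higher and 27.7% lower in ApoE3, and 26.1% and 28.6% in ApoE4. At 21 dpi 8.07% of all rows were lower and 7.47% higher in ApoE3 on that scale, and 58.9% and 2.02% as deposited.

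The further genes were also read by function. The genes of amino acid and transmitter transport and turnover summed over 12 genes to 1015 FPKM in ApoE3 and 997 FPKM in ApoE4 at 7 dpi and to 1574 and 2200 at 21 dpi. After the table's median was subtracted, 7 of these 12 were higher at 21 dpi and 2 lower in each genotype. The most abundant were SLC6A9, CBS and SLC7A10, of which CBS passed the fold in ApoE3 and lay at 0.375 in ApoE4, just inside it. SLC6A9, the glycine transporter of astrocytes, was listed at 305 and 286 FPKM at 7 dpi and at 473 and 623 at 21 dpi, the first of each pair being ApoE3. The genes of potassium and ion transport summed over 10 genes to 3199 and 3135 FPKM at 7 dpi and to 3025 and 4607 at 21 dpi, led by ATP1B2. Of these 10, 0 were higher and 4 lower at 21 dpi in ApoE3, and 1 was higher and 3 lower in ApoE4, with the table's median subtracted. As deposited, the ApoE4 counts were 6 higher and 0 lower, against 59.0% and 10.9% of all genes. KCNJ10, the inward rectifier potassium channel found with AQP4 in endfeet, was listed at 624 and 563 FPKM at 7 dpi and at 368 and 588 at 21 dpi.

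Genes of gap junctions, endfeet and the dystrophin complex that anchors AQP4 summed over 8 genes to 1653 and 1624 FPKM at 7 dpi and to 1971 and 2827 at 21 dpi, led by DTNA. With the median of all genes subtracted, 2 of the 8 were higher and 3 lower in each genotype. Genes of lipid, glucose and lactate metabolism summed over 11 genes to 2758 and 2646 FPKM at 7 dpi and to 4568 and 6127 at 21 dpi. The rise in these sums is mostly that of LDHB, at 1247 and 1116 FPKM at 7 dpi and 3067 and 3955 at 21 dpi. In this list 2 were higher and 5 lower in ApoE3, and 2 higher and 2 lower in ApoE4. Transcription factors, receptors and secreted proteins of astrocytes, led by SPARCL1, summed over 19 genes to 9575 and 9151 FPKM at 7 dpi and to 12536 and 20222 at 21 dpi, with 7 higher and 3 lower in ApoE3 and 10 higher and 3 lower in ApoE4. These counts have the table's median subtracted. As deposited, those in ApoE4 were 4 higher and 1 lower for gap junctions and endfeet, 7 and 1 for metabolism, and 15 and 1 for the last list. The shares of all genes were 59.0% higher and 10.9% lower on that scale.

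Reactive astrocyte genes, led by GFAP, were set beside the homeostatic genes. Over 19 genes they summed to 15281 FPKM in ApoE3 and 15806 FPKM in ApoE4 at 7 dpi, and to 10099 and 18297 at 21 dpi. Against the table's median, 14 of the 19 were lower at 21 dpi and 1 higher in ApoE3, and 13 were lower and 3 higher in ApoE4. Of all genes, 27.7% were lower and 26.6% higher in ApoE3 on that scale, and 28.6% and 26.1% in ApoE4. As deposited, 8 reactive genes were lower and 5 higher in ApoE4, against 10.9% and 59.0% of all genes. VIM, an intermediate filament of reactive astrocytes that many other cells also express, was listed at 528 and 611 FPKM at 7 dpi and at 238 and 333 at 21 dpi. Relative to all genes, AQP4 and GJA1 passed the fold in the direction of most reactive genes in both genotypes, and SLC1A2 did so in ApoE3. GLUL and S100B passed it in the other direction in both genotypes, and GJB6 did so in ApoE4. GFAP itself kept a narrow proportion to SLC1A2, at 7.24 in ApoE3 and 7.91 in ApoE4 at 7 dpi and 7.76 and 8.50 at 21 dpi. Between genotypes at 21 dpi, 4 of 19 reactive genes were lower in ApoE3 and 2 higher relative to all genes, with a median of -0.24. As deposited, 16 were lower and 0 higher. Of all rows, 8.07% were lower and 7.47% higher relative to all genes, and 58.9% and 2.02% as deposited.

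**Figure D5:**
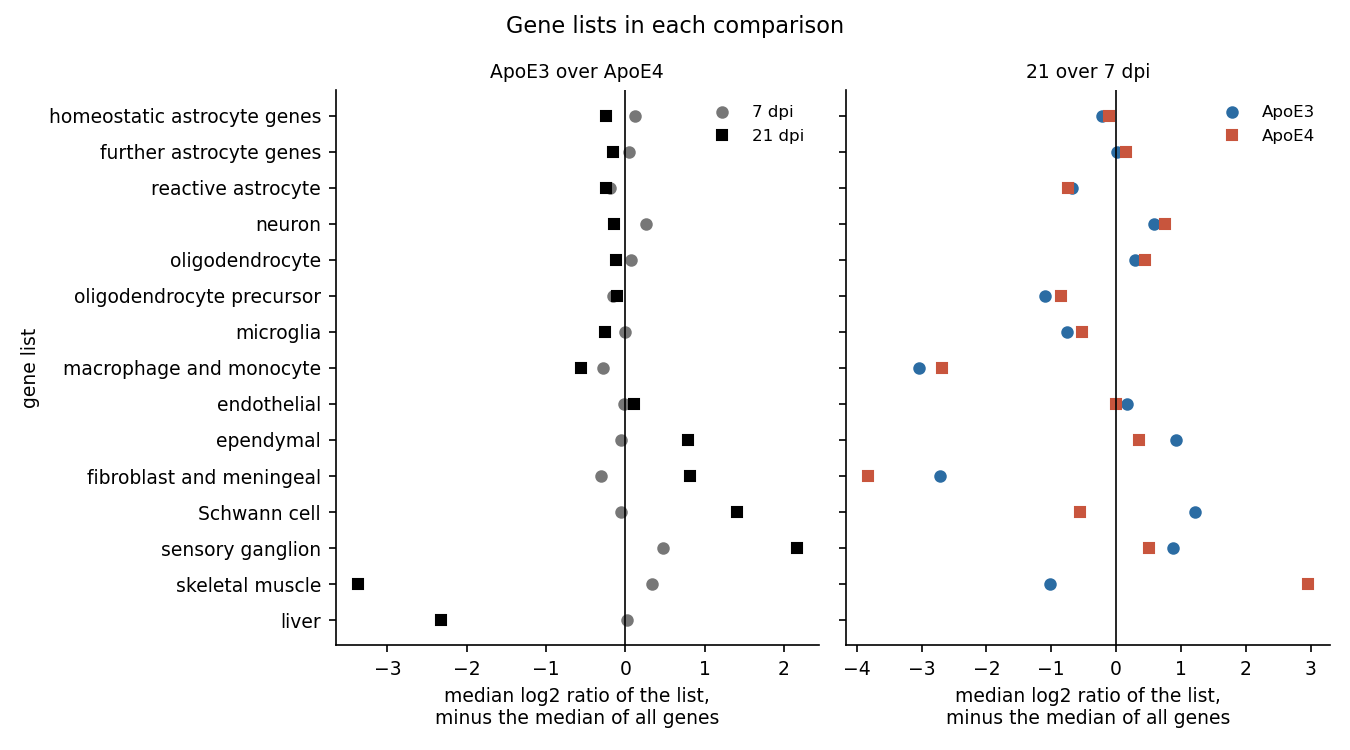
Median log2 ratio of each gene list minus the median of all genes, ApoE3 over ApoE4 at both times (left) and 21 over 7 dpi in both genotypes (right). The homeostatic astrocyte genes lie at -0.24 on the left at 21 dpi, while skeletal muscle and liver markers lie farthest from 0 in that comparison.

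Genes with the most similar pattern were sought among 8503 others with a mean of at least 10 FPKM over the 4 groups. The measure was the distance between a gene's 4 values of log2 FPKM + 1, less their mean, and the median profile of the homeostatic genes. That profile stood at -0.2 in ApoE3 and 0.333 in ApoE4 at 21 dpi. No median of all genes was subtracted, so the profile also carries the shift of the whole table between genotypes at 21 dpi. The nearest 10 were ZFP652, LBH, DIP2B, UBR7, DENND6A, ADO, ELOVL5, MARF1, EPRS and MPHOSPH9, at distances of 0.0225 to 0.0382 over 4 groups. ELOVL5 was listed at 181 and 176 FPKM at 7 dpi and at 167 and 237 at 21 dpi. Of the 8503 others, 278 lay nearer to the median profile than ALDH1L1 and 392 nearer than SLC1A3. The profile is a poor stand-in for the rest of the homeostatic genes listed at both times. For these, between 3471 (SLC1A2) and 7962 (AQP4) other genes lay nearer.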

How the data were processed

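RNA from lesion segments was sequenced, and the authors deposited FPKM + 1 per gene for each group of 3 mice, from Cuffdiff 1.3.0 after alignment with STAR 2.5.4b and use of SAMtools 0.1.7, per the submitters' processing notes. By the methods, 1 replicate aligned at a lower rate than the others. The build is not given in the sources used here. Beside these values stand the authors' own p-values, q-values, fold changes, log2 fold changes and significance calls, which were not used. Here 1 was subtracted, and log2 ratios were taken with a pseudocount of 1 and a fold of 1.3. Medians of all genes used genes averaging 1 FPKM or more. No test was run, since 1 value per group gives no spread. Of 25601 rows, 25148 had a symbol in the name table, all 9 genes included, and 2 symbols per time point stood on 2 rows. Named genes were the 9 members, up to 3 genes of highest mean FPKM per list, the markers listed at 0 and the 10 nearest profiles; CHRDL1 and SLC14A1 were named for their values; 1 gene of a further list is not reported here by name. Members and the 18 further lists were chosen with earlier results of these data known. Alternatives were a pseudocount of 0.1, centring, rescaling, a fold of 1.5 and a background filter. The code was tested on simulated data. Python 3.11.15, numpy 2.4.6, pandas 2.3.3 and matplotlib 3.10.9 were used.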

Additional observations from a re-analysis of the deposited data

Results flagged for a closer look

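For 5 of the 8 genes listed at both times, the ApoE3 to ApoE4 ratio pointed to ApoE3 at 7 dpi and to ApoE4 at 21 dpi, both as deposited and relative to all genes. Of the 10876 genes on 1 row at both times, 49.0% did so as deposited and 26.1% on both scales. The centred log2 ratio at 21 dpi minus that at 7 dpi was -0.68 for GJB6, -0.55 for AQP4, -0.47 for SLC1A2, -0.35 for GJA1 and -0.18 for GLUL. Neuron markers had a median ratio relative to all genes of 0.26 at 7 dpi, where 15 of 15 were positive, and of -0.14 at 21 dpi, where 10 of 13 were negative, and their part in this was not tested. With 1 value per group, the difference between time points was not tested, and at 7 dpi no gene passed the fold.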

How the results depend on the processing

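No paired analysis was possible because each group has 1 value per gene. On values as deposited, a pseudocount of 0.1 changed no call for the homeostatic genes and no count of them. A background of genes averaging 1 FPKM or more left the 8 background shares as deposited within 1.5 times. Neither alternative was run on values relative to all genes or on the further lists. Medians are called moved when they shift by 0.1 or more.

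At 21 dpi, the 9 genes lower in ApoE3 became 1 after the median of all genes was subtracted, 1 after rescaling to a common total and 1 after subtracting the median of abundant genes (averaging 100 FPKM or more), and the median log2 ratio of -0.67 became -0.24, -0.23 and -0.25. SLC1A3 changed sign, to 0.028, 0.032 and 0.019. AQP4 was the gene that stayed lower under all 3, at -0.398, -0.384 and -0.407, just past the threshold of 0.379.

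For 21 against 7 dpi in ApoE3, the median of -0.13 became -0.39 after rescaling and -0.39 with the abundant genes. Rescaling left 1 gene higher, and both left 4 lower in place of 3, with ALDH1L1 at -0.51 and -0.51. In ApoE4 the median of 0.42 became -0.11, -0.27 and -0.30 under subtraction, rescaling and the abundant genes. The counts of 5 higher and 1 lower became 3 and 2, then 3 and 3, then 3 and 3. A fold of 1.5 left 3 higher. SLC1A3 changed sign to -0.08, -0.24 and -0.26, ALDH1L1 to -0.14, -0.30 and -0.33, and GJA1, at 0.07 as deposited, to -0.45, -0.62 and -0.64. SLC1A2, at 0.20 as deposited, became -0.32, then passed the fold at -0.50 and -0.51.

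With genotypes read by column number, the median at 7 dpi became -0.12 and that at 21 dpi 0.67, with 9 genes higher and 0 lower in ApoE3: SLC1A2 0.77, SLC1A3 0.40, AQP4 0.82, GLUL 0.46, ALDH1L1 0.65, ALDOC 0.48, GJA1 0.67, GJB6 0.77 and S100B 0.77. This reading and the abundant genes were chosen after seeing the data. Why the scalings differ was not tested. All libraries were down-sampled to a common read number, but reads per gene are unknown, so no limit of detection is given.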

Other observations

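Other cord cells and linings are given for the setting of the astrocyte genes, relative to all genes and with ApoE3 first in each pair of values. On that scale, 26.6% of all genes were higher and 27.7% lower at 21 than at 7 dpi in ApoE3. In ApoE4 these shares were 26.1% and 28.6%, and as deposited 59.0% and 10.9%. Oligodendrocyte precursor markers, 9 genes led by OLIG1 at 21 dpi, summed to 750.3 and 819.8 FPKM at 7 dpi and to 454 and 689.5 at 21 dpi, with 5 of 9 lower at 21 dpi in ApoE3 and 6 of 9 in ApoE4. Before the median was subtracted, 3 of these 9 were higher and 4 lower in ApoE4. Microglia markers, 6 genes led by AIF1, summed to 759 and 757 FPKM at 7 dpi and to 462 and 825 at 21 dpi, with 5 lower and 0 higher in ApoE3 and 3 lower and 1 higher in ApoE4.

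Fibroblast and meningeal markers, 8 genes led by IGF2, summed to 1822 and 1822 FPKM at 7 dpi and to 239 and 142 at 21 dpi, with 6 of 8 lower at 21 dpi in ApoE3 and 7 of 8 in ApoE4. Ependymal markers, 6 genes led by FOXJ1, summed to 67.9 and 70.1 FPKM at 7 dpi and to 136 and 128 at 21 dpi, with 4 higher in ApoE3 and 3 in ApoE4. Endothelial markers, 8 genes led by SLCO1A4, summed to 401 and 389 FPKM at 7 dpi and to 510 and 614 at 21 dpi, with 2 of 8 higher and 2 lower in ApoE3 and 1 higher and 2 lower in ApoE4. Before the median was subtracted, 5 endothelial markers were higher and 2 lower at 21 dpi in ApoE4, and 6 of 6 ependymal markers were higher. Between genotypes at 21 dpi and relative to all genes, 2 of 9 oligodendrocyte precursor, 2 of 6 microglia and 1 of 10 oligodendrocyte markers were lower in ApoE3, and 2 of 8 endothelial markers were higher. As deposited, 6 of 9, 6 of 6 and 10 of 10 were lower, and of the endothelial markers 0 were higher and 1 lower. Of all rows at 21 dpi, 8.07% were lower and 7.47% higher in ApoE3 relative to all genes. The shares as deposited were 58.9% and 2.02%.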
